A study of Mus musculus with 192 samples.

Results

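Single BFU-E cells (erythroid burst-forming units, the early committed progenitors of the red cell lineage) were ordered by how strongly they expressed 4 genes of red cell formation, and the cells at the late end of that order were set against those at the early end. Both groups were thus chosen by measured values, the levels of those 4 genes. Of 192 cells in the series, 191 had a column of counts, 96 of them BFU-E. A BFU-E cell entered the order when it had at least 100000 counts, at least 2000 genes with a count, and a summed level of at least 100 CPM (counts scaled to a library total of 1000000) for Gata1, Klf1, Epor and Mfsd2b, which served as an erythroid gate. Of the 96 BFU-E cells, 92 passed the depth limits and 36 of these fell under the gate, which left 56 cells. Their score was the mean log2(CPM + 1) of Klf1, Epor, Alad and Fech; the 20 highest are called late, the 20 lowest early, and the 16 between them middle cells.

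The cells came from fetal livers of C57/Bl6J mice at embryonic day 14.5, with no genetic change or treatment in either group. Red cells were lysed, and magnetic beads took out cells carrying lineage antigens (CD3e, CD11b, CD45R, Ly-6G and Ter119), Sca-1, CD16/32 or CD41 before single cells were sorted by CD117, CD71 and CD24. The sources used here state neither the sort gates nor how many animals were used. All 56 cells came from 1 plate, read by SmartSeq2, a whole-transcript method that amplifies the RNA of a single cell by PCR and carries no molecular barcode. A second plate held 95 CFU-E cells (erythroid colony-forming units, the next stage) with a column, of which 89 passed the depth limits.

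In the fetal liver, BFU-E cells divide under stem cell factor and glucocorticoids and give rise to CFU-E cells, which depend on erythropoietin. On this path the transcription factors Gata1 and Klf1 switch on genes for heme synthesis, iron uptake and the red cell membrane, while genes of stem cells and of other blood lineages are switched off. Globin accumulates mainly after the CFU-E stage.

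Cells of 1 plate are not replicates of a condition, and the cells were put into groups by measured values, so each group is 1 sample and no test was made. Differences are described by size. Each cell was thinned to 100000 counts so that all weigh equally, the thinned counts were summed to 2000000 per group, and a group level is the CPM of that sum. Intervals in parentheses beside folds are exact 95% intervals for counting error only, and since PCR copies are not independent molecules they are too narrow even for that. Levels of single cells are CPM of unthinned counts, whereas a group at 0, and a share of a group's counts held by 1 cell, refer to thinned counts.

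The 4 score genes set the groups, so their values are given only to describe them. Klf1, a transcription factor of erythroid genes, lay between 0 and 197 CPM in early cells (median 30.2) and between 148 and 680.4 CPM in late cells (median 284). Epor, the erythropoietin receptor, lay between 0 and 212 CPM in early cells (median 40.8) and between 87.7 and 382 CPM in late cells (median 209). Alad, which forms porphobilinogen, lay between 0 and 406 CPM in early cells (median 48.8) and between 115 and 601 CPM in late cells (median 346), and Fech, which inserts iron into protoporphyrin, lay between 0 and 345 CPM in early cells (median 41.2) and between 92.2 and 830.5 CPM in late cells (median 363). Every late cell was above the early median for each of the 4, yet each gene also had early cells inside the late range. Scores ran from 0.908 to 6.55 in early cells (median 4.83) and from 7.37 to 8.76 in late cells (median 8.20). The lowest middle cell scored 6.60 and the highest 7.33, so both boundaries cut through a continuous order rather than a gap. Over the 56 cells, Pearson's r between pairs of the 4 genes on the log2(CPM + 1) scale lay between 0.327 and 0.592; these points share a plate, and the values are descriptive.

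**Figure D1:**
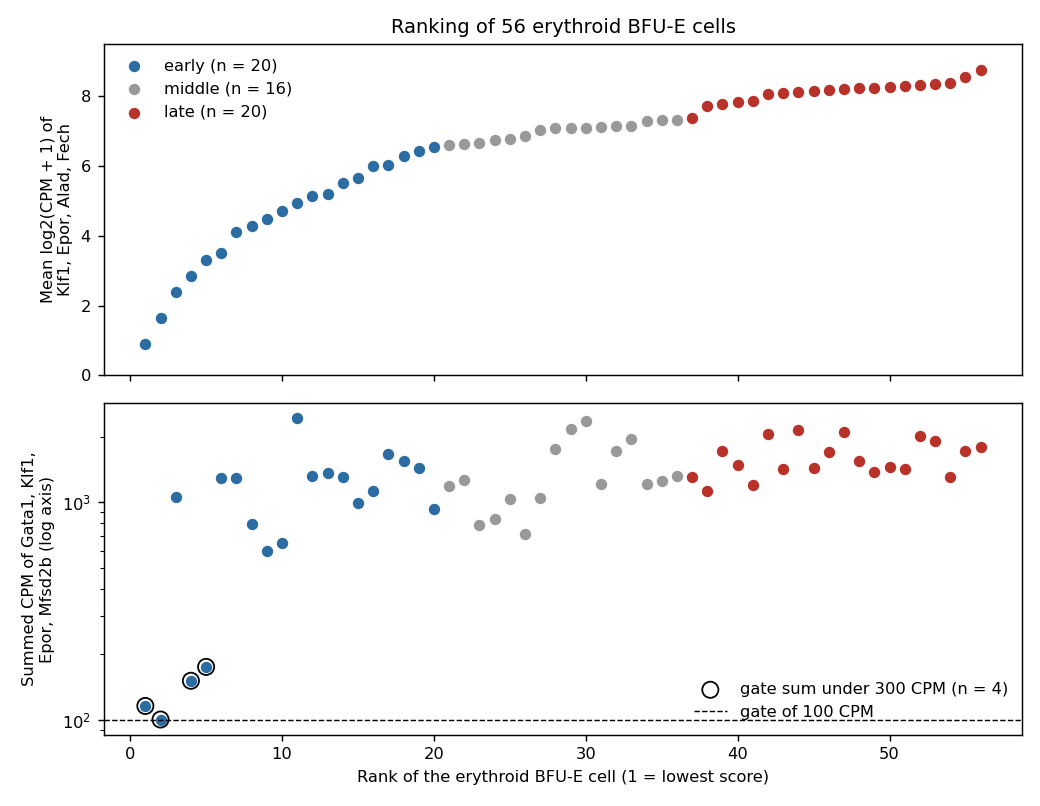
Score of each of the 56 erythroid BFU-E cells, mean log2(CPM + 1) of Klf1, Epor, Alad and Fech, by rank (upper panel), and the summed CPM of the gate genes Gata1, Klf1, Epor and Mfsd2b on a log axis (lower panel). Each point is 1 cell; the score climbs without a step at either boundary, and 4 early cells, ringed, lie at 100.2 to 175 CPM just above the gate of 100 CPM while all others lie at 594 CPM or more.

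Several early libraries stood apart from the rest. Gate sums of the 4 lowest cells inside the gate were 100.2, 116, 151 and 175 CPM, the next cell was at 594 CPM, and the highest cell left outside was at 42.7 CPM. All 4 were early cells. A sum of at least 100 CPM for the myeloid genes Mpo, Elane, Prtn3, Ctsg, Ms4a3, Csf1r and Csf3r was found in 7 early cells, among them 3 of these 4, and in 0 late cells. The fourth low-gate cell was the shallowest, with 114288 counts. In 1 other early cell, 22.3% of counts went to the predicted gene Gm10800. The lists, and the genes these cells weighed on most, are therefore also given against the 16 early cells with a gate sum of at least 300 CPM. Early cells had a median of 976913 counts (114288 to 1463470) and late cells 1425460 (697150 to 3864040). After thinning, the median number of genes with a count was 5812.5 in early and 6217.5 in late cells, and mitochondrial genes took 3.68% and 3.36% of counts. Both groups held cells that expressed Xist and cells that expressed the Y-linked Eif2s3y. Xist was lower in late cells at 169 against 448 CPM, a log2 difference of −1.40, and Eif2s3y was at 65 against 70.5 CPM; the part of sex in the differences was not tested. Both groups were spread over many wells, with 10 first indices in each. No 2 of the 56 cells had identical counts, and 55 of the 56 index pairs were also used on the CFU-E plate.

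A gene was measured when its mean level over both groups was at least 10 CPM, which held for 8312 genes without the 4 score genes. A gene with no count in 1 group could reach that level only through the other group. On the log2(CPM + 1) scale, 588 genes were at least 2-fold higher in late cells, or 7.07% of those measured, and 1129 were at least 2-fold lower, or 13.6%. The median log2 difference over all measured genes was −0.01. Against the 16 early cells, 672 of the same genes were higher (8.08%) and 990 lower (11.9%). Single cells weighed on these lists: for 496 of the 1129 lower genes 1 early cell gave over 33.3% of the early counts, a share of 43.9% against 23.5% of all measured genes, whereas for the 588 higher genes 1 late cell did so in 13.4%, against 15.5% of all.

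The 12 genes with the largest difference toward late cells, among those with at least 50 CPM there and a count in at least 10 of 20 thinned late cells, were Prss50, Slc40a1, Svip, Zfp324, Sh2d4a, Cpox, Klf3, Clstn1, Ccne1, Bcl7a, Alms1 and Cercam. Prss50, a serine protease best known from testis (ENSMUSG00000048752, GRCm38 chromosome 9 from 110857967 to 110864629), lay between 0 and 13 CPM in early cells (median 0) and between 0 and 283 CPM in late cells (median 70.2). In 15 of 20 late cells it stood above the highest early cell. Its summed level was 85.5 against 0.50 CPM, and since the early level rested on 1 thinned count, the ratio of 171 has a counting interval of 30.3 to 6793.

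Slc40a1, the iron exporter ferroportin (ENSMUSG00000025993, chromosome 1 from 45908068 to 45926523), lay between 0 and 60.1 CPM in early cells (median 0) and between 0 and 253 CPM in late cells (median 7.88). Its thinned early counts all came from 1 cell, and 10 of the 20 thinned late cells had a count. The summed level was 60 against 2.0 CPM, 30-fold higher (11.4 to 112). Svip, an inhibitor of protein degradation at the endoplasmic reticulum, was 15.7-fold higher (7.38 to 40), with summed levels of 55 against 3.5 CPM. Of its early counts 85.7% came from 1 low-gate cell. The 16 early cells held 1 thinned count of Svip, and against them the ratio was 88 (15.5 to 3507). With 10 cells per group from the odd label numbers its log2 difference was 0.94, short of 2-fold. Zfp324, a zinc finger protein, was 11.9-fold higher (6.03 to 26.7). Sh2d4a, an adaptor with an SH2 domain, was 8.91-fold higher (5.78 to 14.4). Clstn1, a cadherin-like membrane protein, was 6.73-fold higher (4.57 to 10.2) at 101 against 15 CPM. Bcl7a, a subunit of SWI/SNF chromatin remodellers, was 5.62-fold higher (3.51 to 9.41) and stood above the highest early cell in 13 of 20 late cells. Alms1, a centrosomal protein, was 5.07-fold higher (3.36 to 7.9), and Cercam was 4.63-fold higher (3.39 to 6.44). For all 12 the ranges of the groups overlapped, and each had at least 1 late cell with no count. Without the late cell that held the most counts of each gene, the log2 differences of the 12 lay between 1.92 and 5.65. Leaving out the corresponding early cell, which can only raise them, gave 2.52 to 6.43. Against the 16 early cells all 12 stayed past 2-fold.

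**Figure D2:**
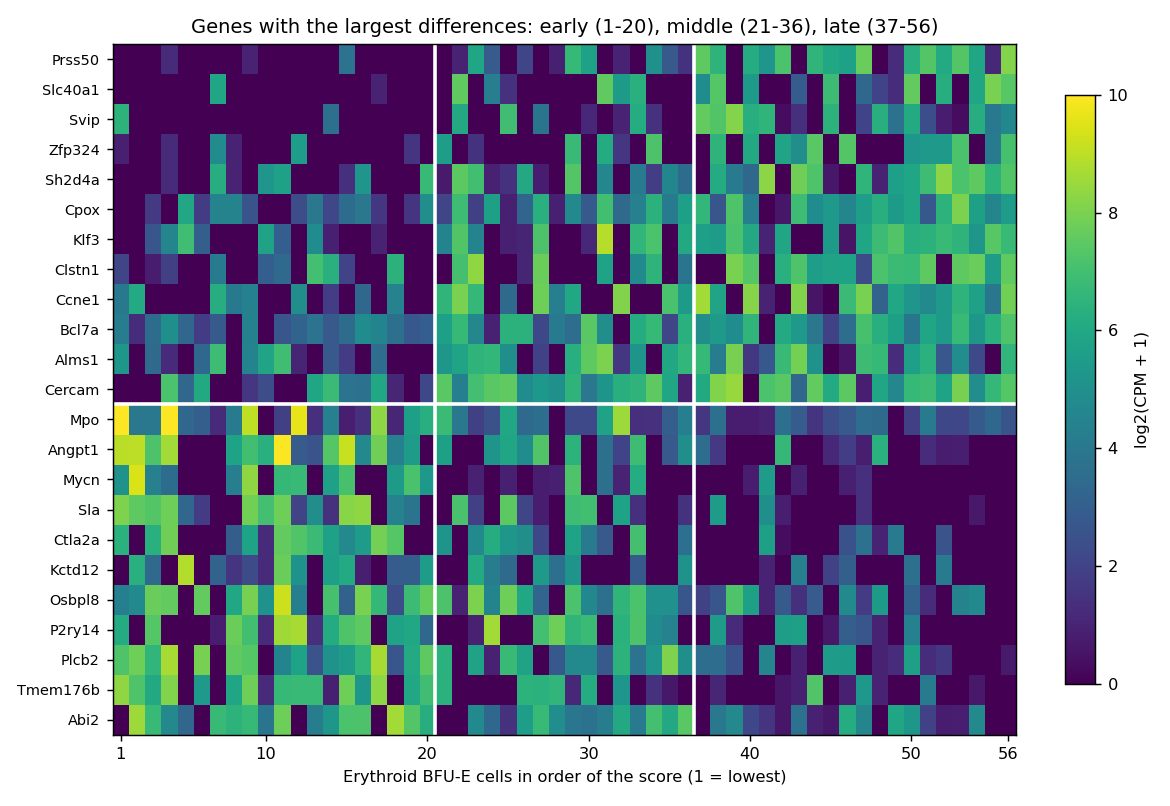
Level of the 12 genes with the largest difference toward late cells (above the white line) and 11 of the 12 with the largest toward early cells (below it), as log2(CPM + 1) with colours capped at 10, in each of the 56 cells in order of the score. Single cells of every group lack counts for these genes, and the middle cells (21 to 36) hold both patterns.

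Among genes of heme synthesis and handling, 6 of 16 measured were at least 2-fold higher in late cells and 0 lower. For all measured genes the shares were 7.07% and 13.6%. The list had a median log2 difference of 0.65. Against the 16 early cells 5 were higher, with a median of 0.83. Cpox, coproporphyrinogen oxidase, the antepenultimate enzyme of the pathway (chromosome 16 from 58670292 to 58717636), lay between 0 and 61.2 CPM in early cells (median 2.9) and between 0 and 261 CPM in late cells (median 44.1). Of the 20 late cells 18 were above the early median, and 6 were above the highest early cell. The summed level was 55 against 7.0 CPM, 7.86-fold higher (4.49 to 14.8), and 11-fold higher against the 16 early cells. Urod, the enzyme before it, lay between 0 and 329 CPM in early cells (median 111) and between 59.7 and 441 CPM in late cells (median 235) and was 2.27-fold higher (1.94 to 2.66). Hebp1, a heme-binding protein, was 4.7-fold higher (2.34 to 10.4), with summed levels of 23.5 against 5.0 CPM, and Tspo2, an erythroid membrane protein linked to cholesterol transport, was 2.37-fold higher (1.78 to 3.18). The difference of Tspo2 fell short of 2-fold under 6 of 25 alternatives, down to 0.35 in log2, and 44.3% of its early counts came from the shallow low-gate cell. Blvrb, biliverdin reductase B, had a count in all 20 late cells and stood above the highest early cell in 10 of them, at 164 against 69.5 CPM over the groups, 2.35-fold higher (1.92 to 2.89). Slc25a38, the mitochondrial glycine carrier of heme synthesis, was 2.34-fold higher (1.53 to 3.66), which became a log2 difference of 0.82 without the late cell with the most counts and 0.92 against the 16 early cells.

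The steps of the pathway did not all lie on the same side. Uros, which forms uroporphyrinogen III, lay toward early cells at 27 against 45.5 CPM. Alas1, the housekeeping form of the first enzyme, stood at 43.5 against 48.5 CPM, and Alas2, the erythroid form, was below the minimum level in both groups, at 9.0 against 4.0 CPM. None of 7 globin genes with a row reached that minimum: Hba-a1 was at 2.0 against 7.5 CPM, and 86.7% of its early counts and 95.5% of those of Hbb-bs came from the shallow low-gate cell.

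Of 20 measured genes of iron handling, 3 were at least 2-fold higher in late cells, beside 7.07% of all measured genes, and 0 lower. The median log2 difference was 0.39. Against the 16 early cells 3 were higher and the median was 0.27. Besides Slc40a1, those higher against all early cells were Slc11a2 and Tfr2. Slc11a2, the divalent metal transporter that moves iron out of endosomes, lay between 0 and 209 CPM in early cells (median 23.5) and between 0 and 387 CPM in late cells (median 155), with 8 late cells above the highest early cell. It was 3.31-fold higher (2.7 to 4.09) at 202 against 61 CPM. Tfr2, a transferrin-sensing partner of the erythropoietin receptor, was 2.12-fold higher (1.74 to 2.61), but its log2 difference was 0.84 against the 16 early cells and 0.97 without 1 late cell. Tfrc, the transferrin receptor (CD71) used in the sort, lay between 0 and 1627 CPM in early cells (median 134) and between 11.1 and 842 CPM in late cells (median 529.6). Its summed level of 461 against 259 CPM gave a log2 difference of 0.83, and 1.20 against the 16 early cells, with 32.4% of its early counts in the shallow low-gate cell. Ncoa4, the receptor for ferritin degradation, lay the other way at 118 against 196 CPM, 1.65-fold lower (1.4 to 1.95).

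Genes of the red cell membrane and maturation had 9 of 26 measured members at least 2-fold higher in late cells and 1 lower. Shares of all measured genes were 7.07% and 13.6%. The members had a median log2 difference of 0.61. Against the 16 early cells the counts were 7 and 1 and the median 0.44. Ermap, an erythroid surface protein of the immunoglobulin family that carries the Scianna blood group in humans, lay between 0 and 508 CPM in early cells (median 3.46) and between 90.1 and 927 CPM in late cells (median 475). All 20 late cells were above the early median, 7 were above the highest early cell, and over the groups it was 3.56-fold higher (3.1 to 4.09), at 468 against 132 CPM. Rhd and Rhag, members of the Rhesus complex, were 6.71-fold higher (4.01 to 11.9) and 4.76-fold higher (3.07 to 7.65). Counts of Rhd came from 9 thinned late cells and 2 thinned early cells, 1 of which held 94.1% of the early counts. Pklr, the red cell pyruvate kinase, lay between 0 and 128 CPM in early cells (median 0) and between 0 and 209.9 CPM in late cells (median 59.7) and was 4.14-fold higher (2.86 to 6.13). Aqp1, the water channel, had a count in every late cell and was 2.68-fold higher (2.1 to 3.44). Sphk1, a sphingosine kinase, was 3.15-fold higher (1.66 to 6.41) with counts in 6 thinned late cells. Add2 (adducin 2) and Ank1 (ankyrin 1) of the membrane skeleton passed narrowly, at log2 differences of 1.11 and 1.04, and stood at 0.80 and 0.76 against the 16 early cells and at 0.92 and 0.73 without 1 late cell each. The lower member was Xpo7, a nuclear exporter, at −1.15, or −0.70 without the early cell with the most counts. The carbonic anhydrases Car1 and Car2 stood at 374 against 291 CPM and 764 against 534 CPM.

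**Figure D3:**
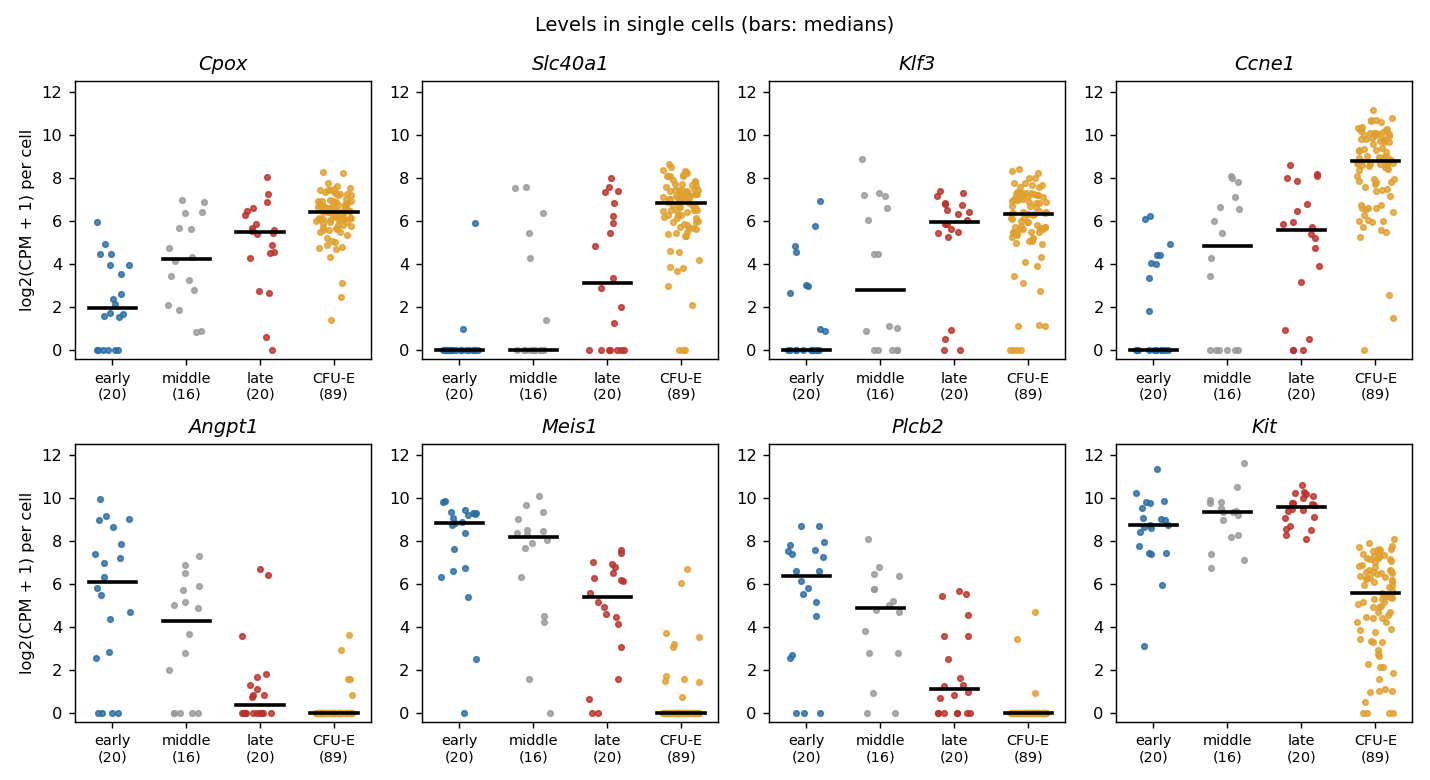
Levels of 8 genes, log2(CPM + 1), in single cells of the early, middle and late BFU-E groups and in the 89 CFU-E cells; each point is 1 cell and each bar a median. Cpox, Slc40a1, Klf3 and Ccne1 have higher medians in late than in early cells, Angpt1, Meis1 and Plcb2 lower ones, and Kit is high in all 3 BFU-E groups and low in CFU-E cells, while ranges overlap between early and late cells for all 8.

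As all the members of the heme and iron lists past 2-fold, and all but 1 of the membrane list, lay on the late side, the RefSeq sequence before their start sites (GRCm38.p6) was searched for the letters AGATAA or TGATAA on either strand, which GATA factors are known to bind. Within 250 bases upstream they occurred in 5 of the 14 matched genes of these 3 lists that were at least 2-fold higher (35.7%), in 2 of 3 matched score genes, in 1 of 15 matched progenitor genes that were at least 2-fold lower (6.67%), and in 16.99% of 27025 genes with such a window. The letters CCACACCC on either strand, one form of the box that Klf1 is known to bind, occurred in 1 of the same 14, Tfr2, and in 3.19% of all. Among the genes of largest difference, the GATA letters occurred in 2 of 9 matched toward late cells (Alms1 and Cpox) and in 2 of 8 toward early cells (Ctla2a and P2ry14). A match describes the letters and shows neither binding nor a cause, and its absence says only that the window lacks them. The windows of Klf1 and Epor and of 4 of the higher genes are shown 5′ to 3′ in the direction of the gene, ending just before the start site or, for Klf1 and Rhag, before an earlier start in the GENCODE M21 annotation. Capitals mark the GATA letters.
Klf1, chr8:84901732-84901927, plus strand: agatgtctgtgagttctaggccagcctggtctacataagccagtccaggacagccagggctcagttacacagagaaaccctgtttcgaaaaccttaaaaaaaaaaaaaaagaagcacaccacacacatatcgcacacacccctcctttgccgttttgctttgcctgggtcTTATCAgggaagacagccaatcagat
Epor, chr9:21963577-21963826, minus strand: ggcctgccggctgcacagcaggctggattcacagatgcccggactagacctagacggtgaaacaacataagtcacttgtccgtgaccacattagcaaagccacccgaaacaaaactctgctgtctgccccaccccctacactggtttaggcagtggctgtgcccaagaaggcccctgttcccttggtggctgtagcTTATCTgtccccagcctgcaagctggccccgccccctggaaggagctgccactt
Cpox, chr16:58669958-58670207, plus strand: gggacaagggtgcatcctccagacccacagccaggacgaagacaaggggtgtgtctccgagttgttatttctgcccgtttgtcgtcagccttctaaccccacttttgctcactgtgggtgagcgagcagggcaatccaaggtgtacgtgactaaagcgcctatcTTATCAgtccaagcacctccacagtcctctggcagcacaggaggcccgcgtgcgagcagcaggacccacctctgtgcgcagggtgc
Rhd, chr4:134864286-134864535, plus strand: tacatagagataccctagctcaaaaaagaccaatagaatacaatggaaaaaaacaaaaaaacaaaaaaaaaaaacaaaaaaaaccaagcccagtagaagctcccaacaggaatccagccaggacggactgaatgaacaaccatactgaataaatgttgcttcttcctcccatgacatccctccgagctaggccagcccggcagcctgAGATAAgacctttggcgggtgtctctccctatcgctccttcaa
Rhag, chr17:40810899-40811125, plus strand: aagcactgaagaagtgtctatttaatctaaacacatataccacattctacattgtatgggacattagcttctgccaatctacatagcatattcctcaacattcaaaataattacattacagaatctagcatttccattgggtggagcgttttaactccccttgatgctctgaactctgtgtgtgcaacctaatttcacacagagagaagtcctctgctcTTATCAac
Pklr, chr3:89135892-89136141, plus strand: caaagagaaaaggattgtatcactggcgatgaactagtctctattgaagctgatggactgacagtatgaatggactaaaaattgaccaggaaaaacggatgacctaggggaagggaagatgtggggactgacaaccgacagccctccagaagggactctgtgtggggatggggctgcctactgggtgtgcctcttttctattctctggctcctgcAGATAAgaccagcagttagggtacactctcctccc
Counted from the first base of the match to the RefSeq start site, the letters lay 80 bases upstream in Klf1, 54 in Epor, 86 in Cpox, 43 in Rhd, 31 in Rhag and 35 in Pklr. All 6 lay within 100 bases of the start, and each window held a single match. These 6 are a selection. Among windows not shown, the letters lay 67 bases upstream in Ermap, a higher gene, and 195 in Ctla2a, a lower gene. Alms1, a higher gene, and P2ry14 and Slamf1, lower genes, also held the letters, at positions not given here. Whether position differs between higher and lower genes was not tested.

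Erythroid transcription factors numbered 22 measured, of which 2 passed 2-fold toward late cells and 1 toward early cells. Among all measured genes, 7.07% and 13.6% did so. The median log2 difference of these factors was 0.31 (3 and 1 with a median of 0.21 against the 16 early cells). Klf3, a Krüppel-like repressor that is a known target of Klf1 (chromosome 5 from 64803388 to 64832901), lay between 0 and 122 CPM in early cells (median 0) and between 0 and 167 CPM in late cells (median 61.3). Late cells were split, with 16 of 20 thinned cells holding a count. It was 7.0-fold higher (4.46 to 11.5), with summed levels of 77 against 11 CPM, and 15.4-fold higher against the 16 early cells, with 54.5% of its early counts in the shallow low-gate cell. Ikzf1, the zinc finger factor Ikaros, was found in all cells of both groups and lay between 0.775 and 638 CPM in early cells (median 95.4) and between 36.7 and 731 CPM in late cells (median 367), 2.22-fold higher (1.95 to 2.54), but it fell short of 2-fold under 6 of 25 alternatives, 10, 15 and 25 cells per group among them, down to 0.65 in log2. Bach1, a heme-sensing repressor of globin and heme genes, was 3.62-fold lower (2.06 to 6.76), with summed levels of 8.0 against 29 CPM, and its log2 difference was −0.90 without 1 early cell. Gata1, a gate gene, was at 376 against 249 CPM and Mfsd2b, a sphingosine 1-phosphate exporter and the other gate gene outside the score, at 680 against 606 CPM; against the 16 early cells their log2 differences were 0.36 and −0.14. Among other erythroid factors, Tal1 was at 26 against 48 CPM and Zfpm1 at 7.5 against 13.5 CPM. Gfi1b, at 220 against 177 CPM, and Nfe2, at 169 against 146 CPM, lay the other way.

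Of the 12 genes with the largest difference toward early cells, 11 are named here: Mpo, Angpt1, Mycn, Sla, Ctla2a, Kctd12, Osbpl8, P2ry14, Plcb2, Tmem176b and Abi2. Angpt1, the ligand of the stem cell receptor Tek (ENSMUSG00000022309, chromosome 15 from 42424723 to 42676977), lay between 0 and 981 CPM in early cells (median 67.6) and between 0 and 101 CPM in late cells (median 0.349). In 9 early cells it was above the highest late cell. Its summed level was 5.5 against 198 CPM, 36-fold lower (19.9 to 72.7), with 72.7% of the late counts from 1 cell. Mycn, a relative of Myc, was 40.8-fold lower (15.6 to 151) at 2.0 against 81.5 CPM, with all thinned late counts in 1 cell.

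The others ranged widely in what they do. Sla, a Src-like adaptor that dampens receptor signalling, was 27.4-fold lower (13.7 to 64.2). Ctla2a, an inhibitor of cathepsin-like proteases with a near-identical copy, Ctla2b, so that its counts are uncertain, was 21.4-fold lower (10.6 to 50.3), and Kctd12, a potassium channel domain protein, 21.6-fold lower (8.98 to 67.9), or 14.2-fold lower against the 16 early cells. Osbpl8, a lipid transfer protein, was 12.1-fold lower (7.78 to 20), and P2ry14, a receptor for UDP-glucose found on blood progenitors, 12.5-fold lower (7.37 to 22.7). Plcb2, a phospholipase of blood cells, lay between 0 and 413 CPM in early cells (median 81.4) and between 0 and 50.1 CPM in late cells (median 1.2), with no late cell at or above the early median, and was 10.8-fold lower (7.22 to 16.8). Tmem176b was 10.1-fold lower (6.53 to 16.5) and Abi2, an actin regulator, 10.1-fold lower (6.37 to 16.9). Mpo, the peroxidase of granulocytes and monocytes, rested on few cells: it lay between 0 and 5539.8 CPM in early cells (median 14.8) and between 0 and 15.8 CPM in late cells (median 4.57), and 1 low-gate cell gave 43.3% of its early counts. It was 115-fold lower (64.1 to 231), with summed levels of 5.5 against 632 CPM, and 20.6-fold lower against the 16 early cells, which held 113 CPM. Without the 7 early cells with myeloid genes, whose choice used Mpo, its log2 difference was −0.29. All 12 stayed past 2-fold against the 16 early cells, at log2 differences from −4.65 to −2.98, and ranges of early and late cells overlapped for every one of them.

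Of 26 measured genes of stem cells and multipotent progenitors, 0 were at least 2-fold higher in late cells and 20 were lower. By comparison, 13.6% of all measured genes were lower. Flt3 and Erg among the 20 had no thinned late count, so they could only be called lower. The median log2 difference of the list was −1.59. Against the 16 early cells 17 were lower and the median was −1.58. With 10 cells per group from the even label numbers the median was −0.96, short of 2-fold. Meis1, a homeodomain factor of stem cells, lay between 0 and 920.2 CPM in early cells (median 457) and between 0 and 187 CPM in late cells (median 40.9), with 14 early cells above the highest late cell and 0 late cells above the early median, and was 5.6-fold lower (4.66 to 6.77). Etv6 and Fli1, both ETS factors, were 4.09-fold lower (3.12 to 5.44) and 4.04-fold lower (3.1 to 5.34), with counts in 19 thinned early and 14 thinned late cells each. Plek, the pleckstrin of platelets and leukocytes, was 8.73-fold lower (6.96 to 11.1), and Hoxa9, a homeodomain factor, rested on 3 late counts at 1.5 against 22.5 CPM, a ratio of 15 (4.82 to 75.5). Gata2, the GATA factor that Gata1 replaces, lay between 0 and 258 CPM in early cells (median 37.5) and between 0 and 280.3 CPM in late cells (median 3.22) and was 2.53-fold lower (1.85 to 3.5), with 70.2% of the late counts from 1 cell.

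Other members of that list rested on the low-gate cells. Cd34, the progenitor surface antigen, lay between 0 and 1783 CPM in early cells (median 6.44) and between 0 and 12.1 CPM in late cells (median 2.45). At 2.5 against 258 CPM it was 103-fold lower (43.9 to 319), and 14.2-fold lower against the 16 early cells, which held 35.6 CPM. Flt3, a receptor of multipotent progenitors, had no thinned count in late cells, of which 11 held unthinned counts at up to 4.23 CPM, and was at least 50.3-fold lower taking 3 counts per group as the floor, but 76.2% of its early counts came from 1 low-gate cell and the 16 early cells held 3.75 CPM. Erg, an ETS factor, also had no thinned late count and was at least 15.3-fold lower, with 14.4 CPM in the 16 early cells. Cd27 turned, with a log2 difference of −2.90 against all early cells and 0.36 against the 16, and Spi1, the myeloid factor PU.1, went from −1.22 to −0.18. The calls of Slamf1, Hhex, Cd48 and Spi1 were each lost without 1 early cell, at −0.49, −0.92, −0.89 and −0.86, and Zfp521 turned to 0.53. Not every progenitor gene was lower: Kit, the receptor for stem cell factor (CD117), lay between 7.55 and 2579 CPM in early cells (median 420.3) and between 271 and 1542 CPM in late cells (median 763) and was at 766 against 560 CPM. Myb was at 280 against 325 CPM, Muc13 at 295 against 382 CPM and Apoe at 877 against 1388 CPM, all short of 2-fold. Among the other sort antigens, Cd24a (CD24) lay between 0 and 369.5 CPM in early cells (median 0) and between 0 and 418 CPM in late cells (median 15), at 83 against 41.5 CPM over the groups, a log2 difference of 0.98. Ptprc, which encodes CD45, lay between 0 and 1006 CPM in early cells (median 129) and between 0 and 351 CPM in late cells (median 12.6) and was 2.68-fold lower (2.24 to 3.23).

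Markers of other blood lineages that reached the minimum level lay on the early side. A marker with no thinned late count could reach it only through early cells, and so could only be called lower. Of 8 measured megakaryocyte markers 6 were at least 2-fold lower in late cells, beside 13.6% of all measured genes. The median log2 difference was −1.60. Against the 16 early cells 7 were lower, with a median of −1.83, but with 10 cells per group taken from the even label numbers the median was 0.047. Their summed level ran from 0 to 5109 CPM in early cells (median 602) and from 48.1 to 795 CPM in late cells (median 225). Of the 16 markers, Pf4, Ppbp, Clec1b, Gp6 and Selp had no thinned count in early cells, nor had these and Itgb3, Gp1bb, Gp9 and Thbs1 in late cells. Gp9, a chain of the von Willebrand factor receptor, was at 33 CPM in early cells, at least 22-fold lower, and Treml1, a platelet receptor, was 3.59-fold lower (2.07 to 6.55). Thbs1, thrombospondin 1, was at 174 CPM in early cells and had no thinned late count, though 3 late cells held unthinned counts at up to 1.35 CPM, at least 116-fold lower, with 61.1% of its early counts from 1 cell. Itga2b, the CD41 chain that the bead depletion targeted, was still found in 16 thinned cells of each group and lay between 0 and 1055 CPM in early cells (median 183) and between 0 and 430.3 CPM in late cells (median 112). It was 2.07-fold lower (1.79 to 2.4), a log2 difference of −0.81 without 1 early cell.

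Of 7 measured granulocyte and monocyte markers, 5 were at least 2-fold lower in late cells, beside 13.6% of all measured genes. Lyz2 and Csf3r among them had no thinned late count, so they were measured only through early cells and could only be called lower. The median log2 difference was −3.86, but against the 16 early cells 3 were lower and the median was −0.30. The sum of the 22 markers ran from 61.2 to 8116 CPM in early cells (median 643), from 136 to 1955 CPM in the 16 (median 625) and from 110.3 to 549.8 CPM in late cells (median 272). Elane, Ctsg, Cebpe, Ly6c2, S100a8, S100a9 and Clec12a had no thinned count in early cells. Lyz2, lysozyme, had no thinned late count and was at least 35-fold lower, with 57.5 CPM in the 16 early cells. Coro1a, an actin regulator of leukocytes, was 5.8-fold lower (4.68 to 7.25). Csf1r, the macrophage colony-stimulating factor receptor, took 98.8% of its early counts from 1 low-gate cell, and Csf3r, the granulocyte counterpart, 94.9%. Of the mast cell and basophil markers, Cpa3, carboxypeptidase A3, was at 135 CPM in early cells with 80% from 1 low-gate cell, and at 14.4 CPM in the 16; Hdc, histidine decarboxylase, was at 35.5 and 23.1 CPM; neither had a thinned late count. None of 12 macrophage markers was measured, and C1qa, C1qb, C1qc, Mrc1, Cd5l, Marco, Siglec1 and Spic had no thinned count in either group. The part of other cell types in the differences between early and late cells was not tested.

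Cytokine receptors and STAT5 targets, 20 of them measured, had 0 members at least 2-fold higher in late cells and 9 lower. This stands beside 13.6% of all measured genes lower. Flt3, Csf3r and Ghr among the 9 had no thinned late count. They were thus measured only through early cells and could only be called lower. The median log2 difference of the list was −0.77. Against the 16 early cells 5 were lower, with a median of −0.40. Besides Flt3, Csf1r and Csf3r, the 9 included Il6st, the shared signal-transducing subunit of interleukin-6 family receptors, 7.4-fold lower (2.9 to 24.1), and Socs2, a STAT5 target, 2.21-fold lower (1.14 to 4.5), or −0.59 in log2 without 1 early cell. Ghr, the growth hormone receptor, took all of its thinned early counts from 1 cell. Insr, the insulin receptor, and the adaptor Sh2b3 lost their calls without 1 early cell, at log2 differences of −0.57 and −0.16. Grb10, an adaptor bound by Kit and insulin receptors, lay on the late side at 496 against 259 CPM, log2 0.94. For glucocorticoid response and renewal genes, 16 were measured and 0 were higher against 2 lower, beside 7.07% and 13.6% of all measured genes. Their median was −0.57 (−0.24 against the 16 early cells). Tsc22d3, the glucocorticoid target GILZ, was 2.89-fold lower (1.84 to 4.66) at 13.5 against 39 CPM, with counts in 8 thinned early and 6 thinned late cells. Tgfbr1, a TGF-beta receptor chain, was 2.43-fold lower (1.7 to 3.54), but at −0.60 in log2 against the 16 early cells. Nr3c1, the glucocorticoid receptor itself, was at 169.5 against 130.5 CPM, Tgfbr3 at 176 against 164 CPM and Zfp36l2, which holds BFU-E cells undifferentiated, at 24 against 36 CPM.

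Among S, G2 and M phase genes, the shares at least 2-fold higher in late cells lay under the 7.07% of all measured genes. Of 32 measured S phase genes, 27 lay above 0 in log2, beside 48.9% of all measured genes, with a median of 0.36. Only Ccne1 and E2f1 were at least 2-fold higher and 0 were lower. Against the 16 early cells the counts were also 2 and 0 and the median 0.28. Ccne1, cyclin E1, which drives entry into S phase, lay between 0 and 74.5 CPM in early cells (median 0) and between 0 and 385 CPM in late cells (median 46.7). It was 6.19-fold higher (4.1 to 9.67), with summed levels of 83.5 against 13.5 CPM, and 6.36-fold higher against the 16 early cells, but 0.30 in log2 among cells of odd label numbers. E2f1, its transcriptional activator, was 2.46-fold higher (1.26 to 5.11) at 16 against 6.5 CPM, or 0.75 in log2 without 1 late cell. Rrm2, a subunit of ribonucleotide reductase, was at 511 against 297 CPM. Of 32 measured G2 and M phase genes, 1 was higher, Kif2c, a mitotic kinesin, 3.05-fold higher (2.25 to 4.21), 0 were lower and the median was 0.21 (0.15 against the 16). Kif2c fell short of 2-fold under 5 of 25 alternatives, down to 0.24 in log2. Among 12 measured G1 regulators, 0 were higher and 2 lower, beside 13.6% of all measured genes lower, with a median of −0.35; against the 16 early cells 2 were higher (Ccnd1 and Cdc25a) and 1 lower, with a median of 0.0027. Cdkn2d, the inhibitor p19, was 4.29-fold lower (2.64 to 7.26), with summed levels of 10.5 against 45 CPM, and 4.52-fold lower against the 16 early cells, and Rbl2, a retinoblastoma relative, was 2.16-fold lower (1.72 to 2.74), but −0.80 in log2 against the 16. Cdk6, Ccnd2 and Ccnd3, the kinase and cyclins of G1, all lay on the early side at 765 against 1258 CPM, 276 against 430.5 CPM and 161 against 272 CPM, short of 2-fold.

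Genes of ribosome biogenesis and MYC lay slightly toward late cells, with 23 of 28 measured above 0, beside 48.9% of all measured genes. Their median log2 difference was 0.44 (0.43 against the 16 early cells). By 2-fold, 1 was higher and 1 lower, beside 7.07% and 13.6% of all measured genes. The higher one was Max, the partner of Myc, 2.86-fold higher (1.74 to 4.89) at 31.5 against 11 CPM, or 0.98 in log2 without 1 late cell, and the lower was Mycn, given above. Myc lay between 6.47 and 867 CPM in early cells (median 403) and between 158 and 1403 CPM in late cells (median 746), at 797 against 432 CPM over the groups, a log2 difference of 0.88 in the direction opposite to Mycn. Of 25 measured genes of oxidative phosphorylation and 26 cytosolic ribosomal proteins, 0 passed 2-fold either way, with medians of 0.18 and −0.12 (0.28 for the former against the 16). Ribosomal protein genes such as Rps19, at 314 against 547 CPM, took up to 52.8% of their early counts from the shallow low-gate cell, and their median was 0.10 against the 16 early cells. The mitochondrial ribosomal RNA mt-Rnr1, called lower at −1.34, was at −0.44 against the 16. In glycolysis, 1 of 19 measured genes was higher, Pklr, and 1 lower, Pgam1, at log2 −1.04 (−0.87 against the 16).

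**Figure D4:**
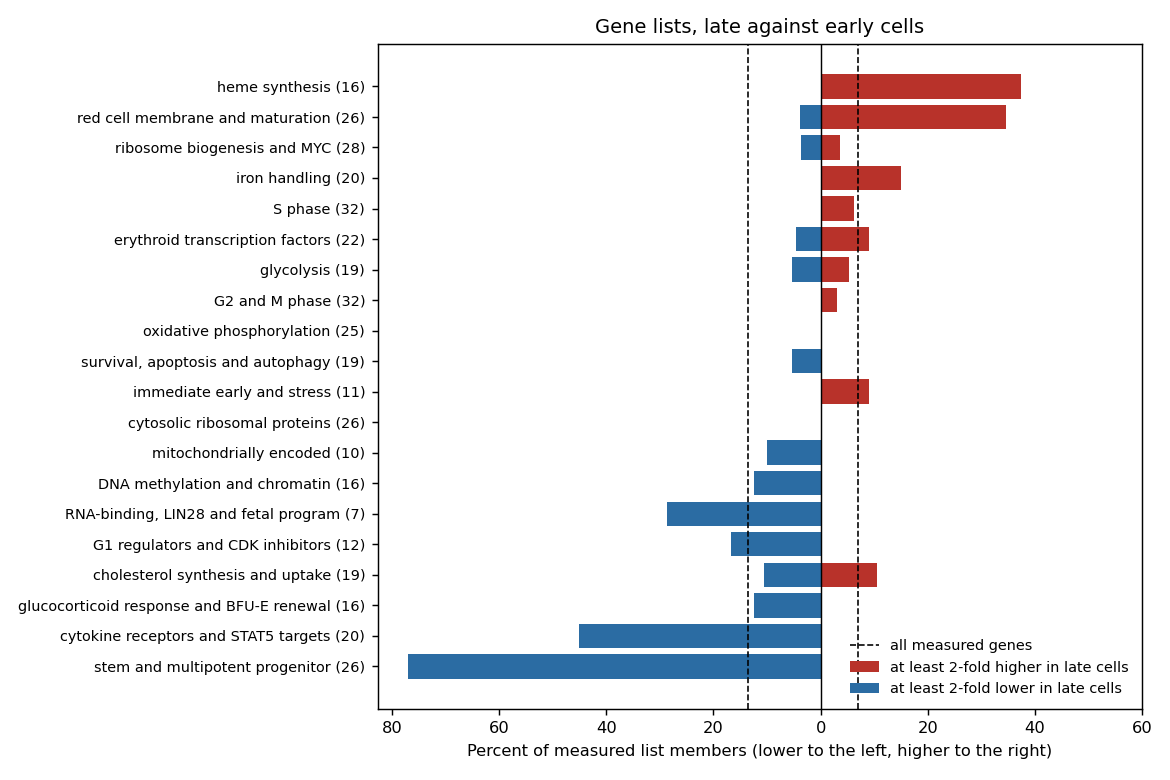
Percent of the measured members of each gene list with at least 5 measured members, cell type markers, sex-linked genes and sort antigens left out, that were at least 2-fold higher (right) or lower (left) in late than in early cells, with the number measured in parentheses and dashed lines at the share of all measured genes (7.07% higher, 13.6% lower). Heme synthesis and red cell membrane reach furthest to the right (6 of 16 and 9 of 26) and stem and multipotent progenitor furthest to the left (20 of 26).

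The 16 middle cells, which no group used, lay between early and late cells for all 12 genes of largest difference toward late cells and all 12 toward early cells. Prss50 was at 17.5 CPM in middle cells, Slc40a1 at 35, Cpox at 41.9 and Klf3 at 66.2. Toward early cells, Angpt1 was at 45, Meis1 at 308 and P2ry14 at 78.8 CPM. Middle cells are the same plate and order, so this is a description of that order and no independent check. The share over all genes past 2-fold was not counted, and of 84 listed genes past 2-fold 59 had a middle level between the early and late ones. Among the exceptions, Pklr, at 16.2 CPM, Max, at 6.88 CPM, and Sphk1, with no thinned count, were no higher in middle than in early cells, while Kif2c, at 140 CPM, and Lss, at 54.4 CPM, were above both groups.

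On the CFU-E plate, 7 of the 12 genes toward late cells were higher still than in late BFU-E cells, and 9 of the 12 toward early cells were lower still; plate, lane and cell type cannot be told apart in that comparison. Ccne1 was at 589 CPM in CFU-E cells, Rhd at 675 and Slc40a1 at 129, all above the late BFU-E level. Clstn1 did not follow, at 3.6 CPM against 101 CPM in late BFU-E cells, nor did Alms1 at 14.6 and Zfp324 at 15.1 CPM. Kit, the sort antigen CD117, was at 73.7 CPM and so below both BFU-E groups.

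The same order was then made within the CFU-E plate, where 86 cells passed all limits, by setting the 20 highest against the 20 lowest. Of 6884 measured genes there, 464 were at least 2-fold higher (6.74%) and 281 lower (4.08%). Of 6571 genes measured on both plates, 455 were higher in late BFU-E cells. Of these, 33 were also higher in the high CFU-E cells, or 7.25%, beside 6.07% of all 6571. Another 18 were lower there, beside 3.91% of all. Of 466 lower in late BFU-E cells, 40 were also lower in the high CFU-E cells, or 8.58%, beside 3.91% of all 6571. More of the 466, namely 54, went the other way and were higher there, beside 6.07% of all. Of the 12 genes toward late cells 7 had the same direction in CFU-E cells, where 54.1% of all 6884 measured genes lay above 0. Only 1 of the 12, Prss50, was at least 2-fold higher, at log2 1.22. Of the 12 toward early cells 3 had the same direction and 1, Abi2, was at least 2-fold lower at −1.74; apart from Abi2 and Osbpl8, the 12 were at 3.26 CPM or less over all CFU-E cells.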

How the data were processed

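The deposited table holds raw counts, whole numbers of reads assigned to each gene in each cell, which the authors made with STAR 2.4 and featureCounts (no version given) on GRCm38, per the submitters' processing notes. Annotation, handling of multiply mapped reads and strand setting are not given in the sources, so genes with near-identical copies are uncertain. Of the columns, 1 matched no sample and stayed out. Gene positions are those of GENCODE M21 (GRCm38), matched by gene ID for 49326 of 49466 genes.

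Cells were kept, gated and ranked as the report states. Counts were drawn down at random to 100000 per cell (seed 1) and summed per group, and levels carry exact Poisson intervals. Fold intervals come from the exact binomial test of one sum given the total. A gene counted as higher or lower when log2(CPM + 1) differed by at least 1, that is 2-fold, with a mean of at least 10 CPM. The floor was 3 counts per group, 1.5 CPM in early and late cells. No doublet caller was used on these single sorted cells. The computation was tested on simulated data. It used Python 3.11.15 with numpy 2.4.6, pandas 2.3.3, scipy 1.17.1 and matplotlib 3.10.9; TMM factors came from edgeR 4.0.16 and median-of-ratios factors from DESeq2 1.42.0, in R 4.3.3, as alternatives only.

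The groups are 20 cells each of 1 plate, so 1 sample each, and no test was made. The text names the 12 genes with the largest log2 difference each way among those with at least 50 CPM and a count in at least 10 thinned cells of the higher group, leaving out predicted genes, pseudogenes and RIKEN clones. It also names, per gene list, the 3 largest in the direction of the list's median and the largest the other way, the score and gate genes, the sort antigens and the most abundant markers of other cell types. Other list members are named to show what a count covers and were chosen after their values were seen. The cells and the gene lists were chosen with earlier results of these data known. Of 612 listed symbols, 4 had no row and were not analysed here. Some genes enter the counts but are not reported here by name. Alternatives changed the group size, the score genes, the scaling, the minimum level, the pseudocount, the cell limits and the set of cells.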

Additional observations from a re-analysis of the deposited data

How the results depend on the processing

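No paired analysis was possible because the labels give the cells no replicate numbers shared between groups and no test was made. Over 25 alternatives, 5 of them chosen after seeing the data (the sets of cells left out and the scaling without predicted genes), 588 genes higher and 1129 lower became as few as 143 and 246 with a minimum of 50 CPM and as many as 2215 and 3785 with no minimum. With 10 cells per group 1305 genes were higher and 1538 lower, with cells of odd label numbers 1079 and 1516, with even numbers 1189 and 1384, and without the 7 early cells with myeloid genes 896 and 1083; the other counts were within 1.5 times. The share of higher genes among those past 2-fold was 34.2%, and 45.9%, 46.2% and 45.3% with 10 cells, even numbers and without the 7 cells. With median-of-ratios factors 598 were higher and 1087 lower, and with TMM 622 and 1060. Of 68 named genes past 2-fold, 33 stayed past it under every alternative and 9 turned under at least 1. The 68 include the 4 score genes, whose difference was set by the ranking itself. Of these, Klf1, Alad and Fech are among the 33, so that number overstates what the alternatives could show. The largest numbers of alternatives that left a named gene's difference on its side but short of 2-fold were 15 for Casp8, 14 for Tfr2, 11 for Pgam1, 8 for Itga2b, 7 for Xpo7, Rbl2 and Hmga2, and 6 for Tgfbr1, Tet1, Ikzf1 and Tspo2. The cause of these changes was not tested.

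The log2 differences that turned were as follows. With odd label numbers Bach1 was at 1.0, E2f1 at −0.26, mt-Rnr1 at 0.25, Fdft1 at 0.082, Fgb at 1.58, Pdgfrb at 3.58 and the endothelial and stromal median at 1.32. With even numbers Max was at −0.26, Tet1 at 0.13 and the megakaryocyte median at 0.047. Itga2b was at 0.31 with 10 cells per group. Fgb was at 1.58 with at least 300000 counts and 4000 genes, at 2.91 with a gate of 300 CPM and at 2.91 without the 4 low-gate cells. The endothelial and stromal median was at 0.085 with a gate of 300 CPM and at 0.18 with myeloid cells left out of the ranking. Single cells limit all levels: with 20 cells a group, differences between animals or plates have no estimate.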

Other observations

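Of 19 measured genes of cholesterol synthesis and uptake, 4 lay above 0 in log2, beside 48.9% of all measured genes. Of the 4, 2 were at least 2-fold higher in late cells. Toward early cells 2 passed 2-fold. Of all measured genes, 7.07% were higher and 13.6% lower. The list median was −0.39 (−0.31 against the 16 early cells). Fdft1, squalene synthase, was 2.22-fold lower (1.44 to 3.48). Without 1 early cell its log2 difference was −0.60. Lss, lanosterol synthase, lay the other way at 47.5 against 16.5 CPM, 2.88-fold higher (1.92 to 4.42). Mvd, which forms isopentenyl diphosphate, stood at 14 against 6.5 CPM, and its log2 difference was 0.62 without 1 late cell.

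Among 16 measured genes of DNA methylation and chromatin, 0 were at least 2-fold higher in late cells and 2 lower, beside 13.6% of all measured genes lower, with a median of −0.16; against the 16 early cells 1 was lower and the median was −0.086. Dnmt3a, a de novo DNA methyltransferase, lay between 0 and 1035 CPM in early cells (median 55.6) and between 0 and 270.2 CPM in late cells (median 24.5). Its summed level was 54 against 162 CPM, 2.99-fold lower (2.4 to 3.75), and 2.28-fold lower against the 16 early cells. Tet1, which oxidizes methylcytosine, was 2.25-fold lower (1.42 to 3.65), or −0.76 in log2 against the 16. Of 7 measured genes of the fetal and LIN28 program, 2 were lower and 0 higher (median −0.32): Arid3a, a DNA-binding factor of the ARID family, 2.73-fold lower (1.81 to 4.2), and Hmga2, a chromatin protein, 2.91-fold lower (1.77 to 4.96), the latter −0.42 in log2 against the 16. Lin28b itself was at 104 against 131 CPM. Of 11 measured stress genes 1 was higher, beside 7.07% of all measured genes, and 0 lower, and 0 passed either way against the 16. It was Asns, asparagine synthetase, 2.36-fold higher (2.02 to 2.76), with counts in all 20 thinned late and 14 thinned early cells, and with a log2 difference of 0.93 against the 16. Of 19 measured genes of survival and autophagy, 0 were higher and 1 lower, and 0 either way against the 16: Casp8, an initiator caspase, 2.07-fold lower (1.65 to 2.62), or −0.67 in log2 without 1 early cell.

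Markers of cells outside these lineages were sparse. The 1 measured lymphoid marker, Cd79b of the B cell receptor, was 3.6-fold lower (2.0 to 6.87). Of 3 measured hepatocyte markers, Fgb, a fibrinogen chain, was at 6.5 against 23.5 CPM, and 1 low-gate cell held 93.6% of its early counts, with a log2 difference of 1.54 without it. Of 2 endothelial and stromal markers, Pdgfrb, a platelet-derived growth factor receptor, was at 9.5 against 35.5 CPM, a log2 difference of −1.80, or −0.66 against the 16. Their part in the differences was not tested.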
